A study of Bos taurus with 6 samples.

Results

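The genes described here are 10 markers of mesenchymal cells and of the epithelial-mesenchymal transition (EMT), measured in cultured bovine (Bos taurus) mammary epithelial cells. They were taken by symbol, and all 10 were found among the 24616 genes of the deposited table, each under 1 Ensembl identifier. They are VIM, CDH2, FN1, THY1, S100A4 and DCN, which encode proteins of the cytoskeleton, cell surface and matrix, and the transcription factors SNAI1, SNAI2, TWIST1 and ZEB1. RNA-seq was made from 3 libraries of cells to which acetate (as its sodium salt, NaAc) and BHBA had been added and from 3 libraries of control cells. The headings of the treated columns name NaAc alone, and BHBA comes from the sample titles they were matched to. BHBA is beta-hydroxybutyrate, a ketone body that the ruminant mammary gland takes up together with acetate. The series presents the treated cells as a culture with a high capacity for milk fat, and asks how their transcripts differ from those of control cells. No sodium-matched control, dose, treatment time, animal number or passage is given in the sources used here, so sodium cannot be told apart from acetate and BHBA. The labels do not tell whether the 3 libraries of a group are separate cultures, so the spread behind each p-value may be only technical.

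EMT is a program in which epithelial cells loosen their junctions and take on features of mesenchymal cells. The zinc finger repressors of the Snail and ZEB families and the basic helix-loop-helix factor TWIST1 act on genes such as CDH1, which encodes E-cadherin, while N-cadherin (CDH2), vimentin (VIM) and fibronectin (FN1) mark the mesenchymal side. Epithelial cells put into culture often carry vimentin and fibronectin transcripts beside keratins, and basal mammary cells are known for SNAI2 in mouse and human. THY1 and DCN are best known as fibroblast products, so they also serve as signs of stromal cells in an epithelial culture.

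Values are FPKM, fragments per gene scaled to its length and to the mapped fragments of the library, so that levels of different genes can be set side by side. The depth of the libraries is unknown because FPKM keeps no read counts. FPKM summed to 787186, 936152 and 912431 in treated replicates 1, 2 and 3, and to 1134026, 847971 and 816087 in control replicates 1, 2 and 3. Control replicate 1 stood apart, with 10943 genes at 1 FPKM or more against 11499 to 11686 in the other 5 libraries. Epithelial genes were read beside the labelled cell type, and all 23 found of 24 listed averaged at least 1 FPKM. So did 10 of 16 fibroblast markers and 11615 of all 24616 genes, so this cut alone does not tell the cell type. EPCAM, a surface protein of epithelial cells, lay between 289.76 and 304.98 FPKM in treated cells and between 250.91 and 340.07 FPKM in control cells.

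None of the 10 genes differed between treated and control cells past the threshold used, a Benjamini-Hochberg adjusted p under 0.05 in limma's moderated test over the 11615 genes that averaged 1 FPKM or more. Of these 11615 genes 55 passed, or 0.474%, and 0 of 9 members lies close to that background. ZEB1 lay below 1 FPKM and was not tested. Among the other 9, 7 stood on the higher side and 2 on the lower side, with a median log2 fold change of 0.41 against 0.08 for all genes tested, of which 61.9% stood on the higher side. The members' median was 0.16 without control replicate 1, 0.22 without treated replicate 1 and 0.68 without control replicate 3. The median of all genes in these fits was -0.0026, 0.055 and 0.12. At an unadjusted p under 0.05 there were 4 members, all higher in treated cells, against 11.0% of all genes tested (7.42% on the higher side alone). That count was 2 without treated replicate 1, without treated replicate 2 or without control replicate 3. In these fits 7.75%, 6.29% and 8.96% of all genes tested had such a p. The 4, THY1, S100A4, DCN and TWIST1, were those whose treated libraries all lay above all control libraries, which held for 13.0% of all genes tested, with 19.7% free of overlap in either direction. The groups overlapped for FN1, CDH2, SNAI1, SNAI2, VIM and ZEB1. Of 17 alternative settings 2 gave member calls, all on the higher side. Without control replicate 1, THY1 and S100A4 passed, with 1.25% of all genes tested on that side. With each library's summed FPKM as a covariate, THY1, S100A4, DCN, TWIST1 and FN1 passed, with 11.7% of all genes tested on that side.

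**Figure D1:**
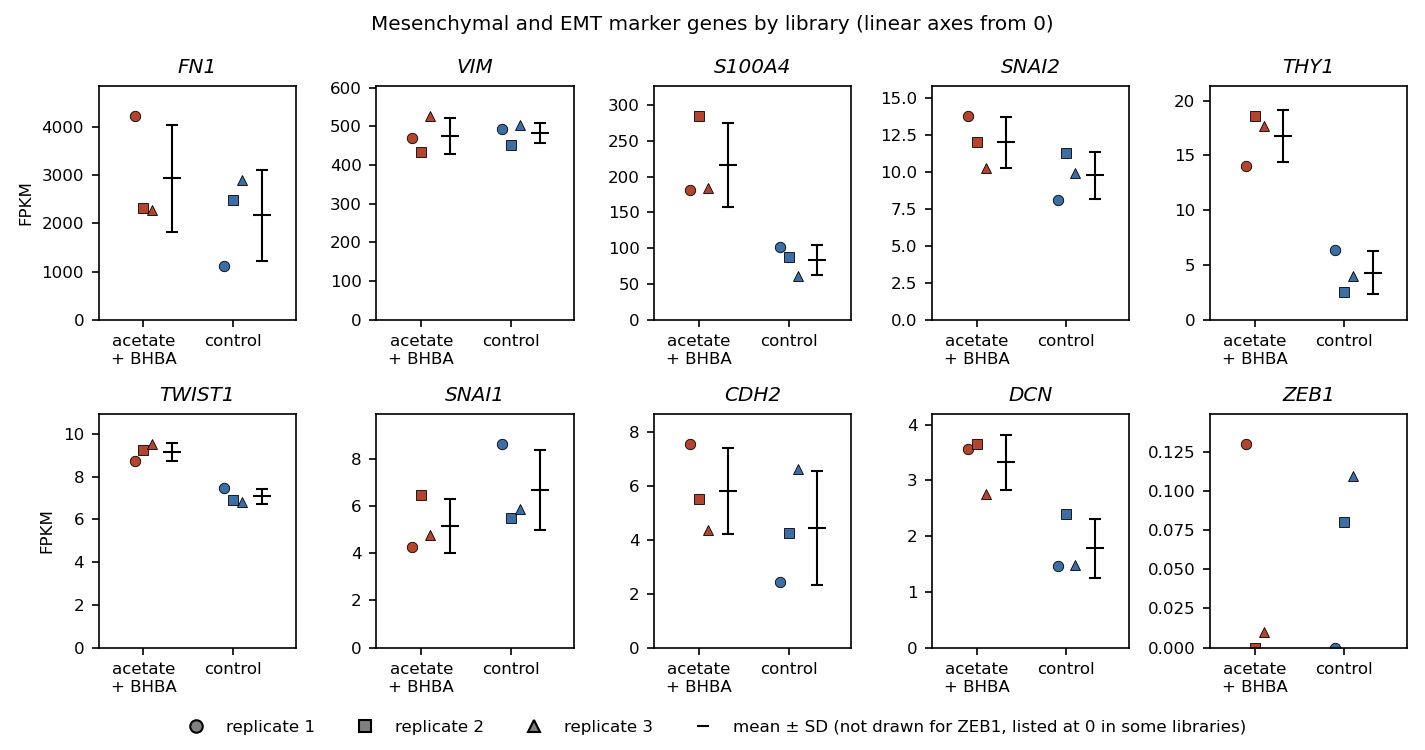
FPKM of the 10 genes in each library, with acetate and BHBA at the left of each panel and control at the right. Each marker is 1 library and the bars are mean ± SD (n = 3 per group, not drawn for ZEB1). The treated libraries of THY1, S100A4, DCN and TWIST1 all lie above the control libraries, while VIM lies between 432.54 and 525.61 FPKM in all 6.

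THY1 (ENSBTAG00000019627) encodes a GPI-anchored surface glycoprotein used as a marker of fibroblasts and mesenchymal stromal cells. It was measured at 14.04, 18.55 and 17.72 FPKM in treated replicates 1, 2 and 3, and at 6.39, 2.54 and 4.01 FPKM in control replicates 1, 2 and 3. The lowest treated library was thus above the highest control library. The means were 16.8 ± 2.40 FPKM in treated cells and 4.31 ± 1.94 FPKM in control cells (SD, n = 3 per group). The log2 fold change was taken on log2(FPKM + 0.5), where the added 0.5 draws low genes toward 0, and was 1.91 ± 0.31 SE (3.77-fold, 95% interval 1.17 to 2.66, limma adjusted p = 0.0711). The adjusted p was 0.0151 without control replicate 1 and 0.00116 with the covariate. A long noncoding RNA gene overlaps THY1 in the RefSeq annotation of assembly ARS-UCD2.0, and the strand setting is not known here, so reads of the pair cannot be told apart.

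S100A4 (ENSBTAG00000019203), a small calcium-binding protein tied to cell motility and also called fibroblast-specific protein, was the other member more than 2-fold higher, as were 2.1% of all genes tested. It had 181.39, 284.00 and 183.70 FPKM in treated replicates 1, 2 and 3, and 102.27, 87.62 and 61.43 FPKM in the control replicates. Treated replicate 2 was far above the other two treated libraries, and the groups did not overlap. The means were 216 ± 58.6 FPKM in treated cells and 83.8 ± 20.7 FPKM in control cells, with a log2 fold change of 1.36 ± 0.26 SE (2.57-fold, 95% interval 0.74 to 1.98, limma adjusted p = 0.0997). As with THY1, the threshold was passed without control replicate 1 (limma adjusted p = 0.0478) and with the covariate (0.0034).

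The S100 genes lie in clusters, so the relatives and neighbours of S100A4 were read beside it. The related S100A2 was far more abundant, at 4271.93 to 5829.90 FPKM in treated cells and 4580.95 to 8572.69 FPKM in control cells, and the groups overlapped (log2 fold change -0.18 ± 0.31 SE). S100A10 and S100A11, also abundant in epithelia, had log2 fold changes of 0.28 ± 0.23 and -0.16 ± 0.39 SE. S100A10 was 8.22 to 11.9 times as abundant as S100A4 within the treated libraries and 17.2 to 24.9 times within the control libraries, and these ranges did not overlap. S100A10 itself overlapped between groups, so the ratio mostly restates the S100A4 difference. The genes next to S100A4 in that annotation are S100A3 and S100A5, looked up after the S100A4 values were seen. S100A5 lay at 12.01 to 14.28 FPKM in treated cells and 2.67 to 10.24 FPKM in control cells (log2 fold change 1.04 ± 0.44 SE, limma adjusted p = 0.462). S100A3 lay at 1.41 to 2.24 FPKM in treated cells and 1.08 to 1.84 FPKM in control cells, and its groups overlapped. Since the strand setting is not given in the sources used here, reads shared between these adjoining genes could not be separated.

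DCN (ENSBTAG00000003505) encodes decorin, a small leucine-rich proteoglycan that binds collagen fibrils. It was low, at 3.57, 3.65 and 2.75 FPKM in treated replicates 1, 2 and 3, and 1.46, 2.39 and 1.49 FPKM in the control replicates. All treated libraries were higher than all control libraries, with a log2 fold change of 0.76 ± 0.24 SE (95% interval 0.18 to 1.35, limma adjusted p = 0.305, or 0.0472 with the covariate). LUM (lumican), a proteoglycan of the same family that lies near DCN in that annotation, lay at 2.29 to 2.79 FPKM in treated cells and 1.44 to 1.69 FPKM in control cells (log2 fold change 0.57 ± 0.20 SE, limma adjusted p = 0.345). BGN (biglycan), another relative, lay at 5.24 to 7.13 FPKM in treated cells and 3.57 to 6.03 FPKM in control cells, with overlap.

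Of the transcription factors, TWIST1 (ENSBTAG00000046922), a factor of mesoderm that can repress CDH1, had the tightest replicates of all 10 genes. It was measured at 8.71, 9.22 and 9.51 FPKM in treated replicates 1, 2 and 3, and at 7.48, 6.90 and 6.83 FPKM in the control replicates. The gap was small but the groups did not overlap. The coefficient of variation was 4.43% in treated and 5.05% in control libraries, against medians of 14.0% and 23.8% over all genes tested, and the log2 fold change was 0.35 ± 0.13 SE (95% interval 0.03 to 0.67, limma adjusted p = 0.392, or 0.0191 with the covariate).

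The Snail factors stood on opposite sides. SNAI2 (Slug, ENSBTAG00000013227) had 13.75, 12.00 and 10.27 FPKM in treated replicates 1, 2 and 3, and 8.07, 11.30 and 9.91 FPKM in the control replicates (log2 fold change 0.29 ± 0.18 SE, limma adjusted p = 0.704). SNAI1 (Snail, ENSBTAG00000014554) had 4.27, 6.47 and 4.78 FPKM in the treated replicates, and 8.63, 5.51 and 5.90 FPKM in the control replicates (log2 fold change -0.33 ± 0.24 SE, limma adjusted p = 0.757). In both genes the groups overlapped, and without control replicate 1 the log2 fold changes were 0.16 for SNAI2 and -0.15 for SNAI1 (0.19 and -0.22 without treated replicate 1). Treated replicate 1 and control replicate 1 were the extremes in both, in opposite order. Per length, SNAI2 was 1.85 to 3.22 times as abundant as SNAI1 in the treated libraries and 0.935 to 2.05 times in the control libraries. Control replicate 1 was the only library in which SNAI1 exceeded SNAI2.

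ZEB1 (ENSBTAG00000020053), a repressor of epithelial genes that marks mesenchymal states, was near the bottom of the range. It was listed at 0.13, 0 and 0.01 FPKM in treated replicates 1, 2 and 3, and at 0, 0.08 and 0.11 FPKM in the control replicates. A listed 0 need not mean an absent transcript in these values, since RPL27, a ribosomal protein gene, was listed at 0 in all 6 libraries. ZEB2 reached at most 0.10 FPKM in either group, TWIST2 at most 0.26 FPKM in treated and 0.34 FPKM in control cells, and SNAI3 was listed at 0 in all 6 libraries. SNAI2, TWIST1 and SNAI1 were the 3 factors of these families listed above 1 FPKM, and for SNAI3 the listed 0 gives no level.

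Among the structural markers, VIM (ENSBTAG00000018463), the intermediate filament protein of mesenchymal cells, was abundant and had the smallest difference of the 9 members tested. It had 468.73, 432.54 and 525.61 FPKM in treated replicates 1, 2 and 3, and 493.25, 452.76 and 503.03 FPKM in the control replicates. The ranges lay almost on top of each other. The log2 fold change was -0.03 ± 0.13 SE, with a 95% interval of -0.34 to 0.29 (limma adjusted p = 0.972), and its sign turned with quantile normalization and with rescaling to equal sums (0.049 in each). VIM ranked 273rd of all 24616 genes by mean FPKM. The basal keratin KRT5 was higher still, 12.9 to 14.5 times VIM within treated libraries and 17.8 to 19.8 times within control libraries.

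FN1 (ENSBTAG00000008300), the matrix glycoprotein fibronectin, was the most abundant of the 10, ranking 52nd of all genes. It had 4220.42, 2319.68 and 2275.37 FPKM in treated replicates 1, 2 and 3, and 1107.83, 2491.74 and 2895.77 FPKM in the control replicates. Treated replicate 1 was the highest library and control replicate 1 the lowest, and the other four lay between 2275.37 and 2895.77 FPKM. The log2 fold change was 0.49 ± 0.44 SE (95% interval -0.56 to 1.54, limma adjusted p = 0.831), or 0.07 without control replicate 1, 0.20 without treated replicate 1 and 0.76 without control replicate 3. With the summed FPKM as a covariate it was 0.27 with an adjusted p = 0.045.

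CDH2 (ENSBTAG00000021190), the N-cadherin that takes the place of E-cadherin in classic EMT, had 7.53, 5.50 and 4.37 FPKM in treated replicates 1, 2 and 3, and 2.43, 4.26 and 6.63 FPKM in the control replicates. The groups overlapped widely, and the same libraries were the extremes as for FN1. The log2 fold change was 0.41 ± 0.36 SE (95% interval -0.46 to 1.29, limma adjusted p = 0.830), 0.08 without control replicate 1, 0.22 without treated replicate 1 and 0.72 without control replicate 3. CDH1 was far more abundant than CDH2 in every library, by 27.2 to 44.1 times in treated and 40.6 to 84.2 times in control libraries. CDH1 itself lay at 171.95 to 204.57 FPKM in treated cells and at 204.59 to 269.26 FPKM in control cells (log2 fold change -0.31 ± 0.15 SE, limma adjusted p = 0.536). Its groups met without overlapping, as on the lower side for 6.69% of all genes tested. CDH3, the P-cadherin of basal cells, lay at 19.54 to 21.14 FPKM in treated and 14.27 to 18.91 FPKM in control cells.

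FN1, CDH2 and SNAI2 shared the order in which treated replicate 1 was highest and control replicate 1 lowest, and SNAI1 had the reverse. Of all genes tested, 26.0% were highest in treated replicate 1 and lowest in control replicate 1, and 15.2% had the reverse. These are also the libraries with the lowest and the highest summed FPKM. With the summed FPKM as a covariate the log2 fold changes were 0.27 for FN1, 0.24 for CDH2, 0.22 for SNAI2 and -0.24 for SNAI1. Without it they were 0.49, 0.41, 0.29 and -0.33. Beyond that fit, the part of the summed FPKM in the values of the 4 genes was not tested. THY1, S100A4, DCN and TWIST1 did not follow this order: their highest library was treated replicate 2 or 3. DCN, however, was also lowest in control replicate 1.

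**Figure D2:**
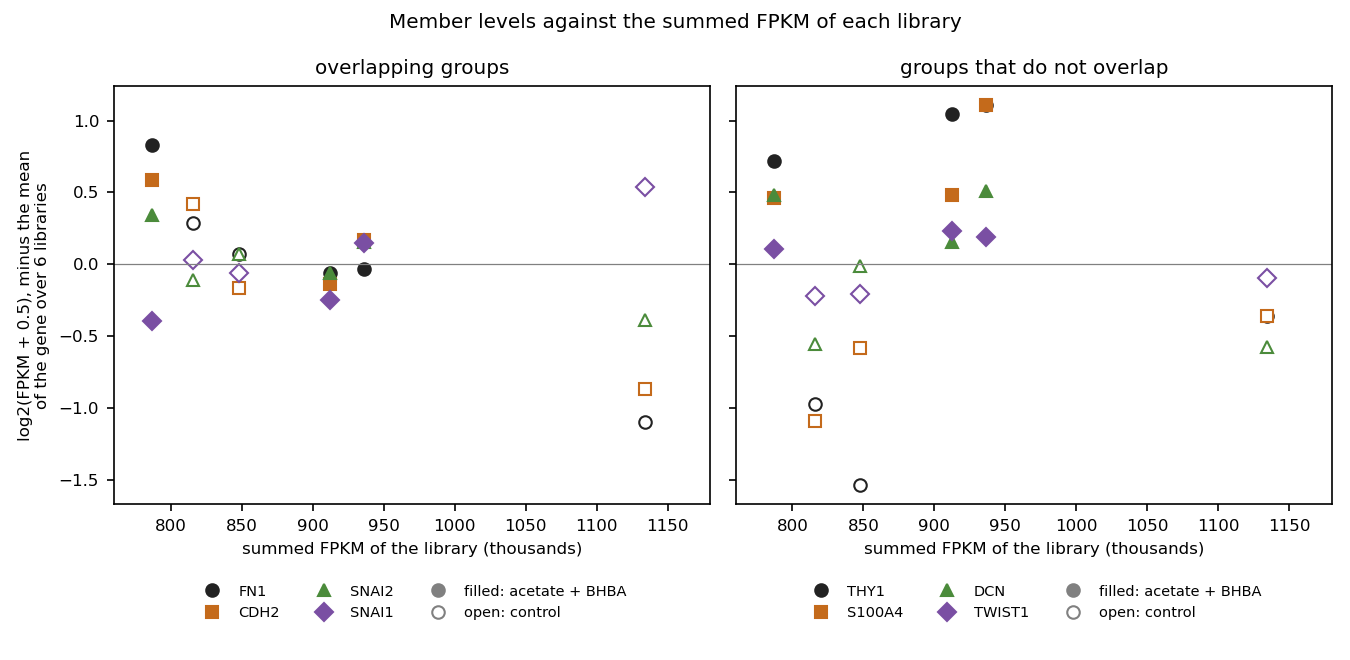
Level of 8 genes in each library, as log2(FPKM + 0.5) minus the mean of the gene over 6 libraries, against the summed FPKM of the library. Filled markers are cells with acetate and BHBA and open markers control cells. On the left FN1 and CDH2 are highest in the library with the lowest sum and lowest in that with the highest, and on the right the filled markers of each gene lie above its open ones.

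**Figure D3:**
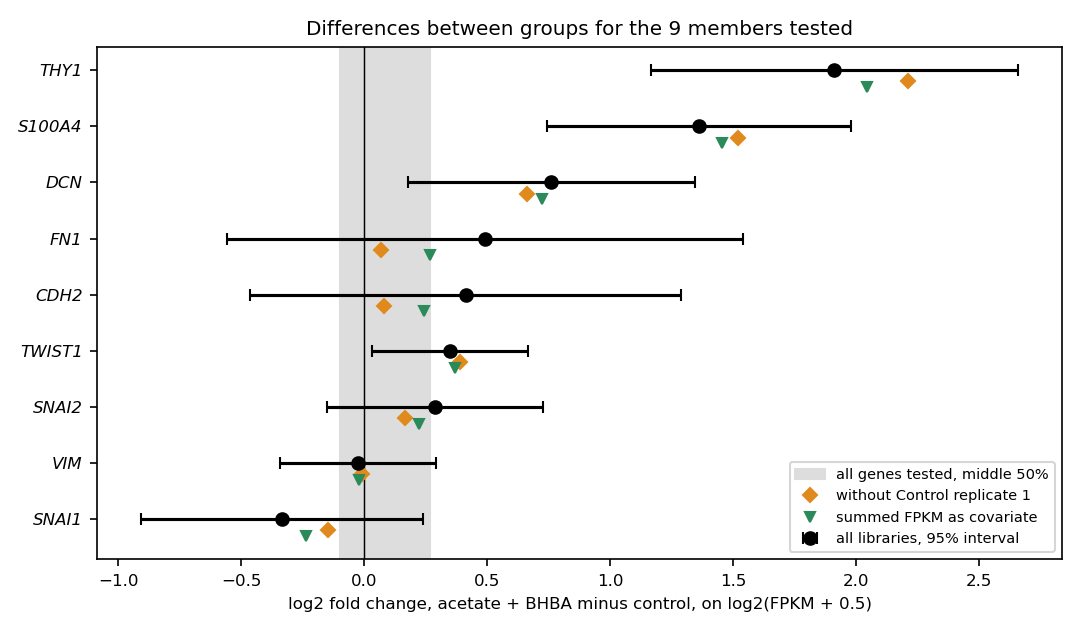
Log2 fold change of the 9 tested genes, acetate and BHBA minus control, with 95% intervals from limma (n = 3 per group), and the values without control replicate 1 (diamonds) or with the summed FPKM as a covariate (triangles). The grey band holds the middle 50% of all genes tested. The intervals of THY1, S100A4, DCN and TWIST1 lie above 0, and FN1 and CDH2 move close to 0 without control replicate 1.

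In order of level per length, FN1 stood above VIM and VIM above S100A4 in all 6 libraries, with no overlap of their ranges. S100A4 in turn was 18.0 times as abundant as SNAI2 by mean in treated cells and 8.58 times in control cells. SNAI2, THY1, TWIST1, SNAI1 and CDH2 followed between 2.43 and 18.55 FPKM, and neighbours in this order overlapped over the 6 libraries. THY1 changed its place: it was above SNAI2 in each treated library and below SNAI2 and TWIST1 in each control library. DCN was lower than CDH2 in every library, although their ranges overlapped, and ZEB1 came last.

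Other matrix, adhesion and cytoskeleton genes of mesenchymal cells, 27 listed and 22 tested, held no call, with 17 on the higher side, 5 on the lower and a median log2 fold change of 0.21 against 0.08 for all genes tested. Of all genes tested 61.9% were on the higher side. At an unadjusted p under 0.05, 6 of the list stood higher and 1 lower, against 7.42% of all genes tested on the higher side and 11.0% in either direction. CTGF (CCN2), a matricellular protein induced by TGF-beta and YAP, lay at 321.78 to 366.04 FPKM in treated cells and 170.61 to 233.39 FPKM in control cells (log2 fold change 0.78 ± 0.15 SE, limma adjusted p = 0.102). TGFBI, a secreted protein named for its induction by TGF-beta, went the other way, at 8.03 to 11.09 FPKM in treated and 15.92 to 20.32 FPKM in control cells (log2 fold change -0.88 ± 0.17 SE, limma adjusted p = 0.105). Neither gene overlapped between groups.

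Of 10 other EMT transcription factors 9 were found, and 3 of these reached a mean of 1 FPKM, with no call. HMGA2, a chromatin protein that can induce SNAI1 and TWIST1 in mouse and human cells, had 5.45 to 8.29 FPKM in treated cells and 3.86 to 4.46 FPKM in control cells (log2 fold change 0.57 ± 0.20 SE, limma adjusted p = 0.348). PRRX1 (-0.43 ± 0.27 SE, -0.20 without control replicate 3) and TCF3 (-0.11 ± 0.20 SE) overlapped between groups. Of 10 TGF-beta ligands, receptors and SMADs, which act upstream of the Snail factors, 7 were on the higher and 3 on the lower side with no call. The 7 of 10 lie near the 61.9% of all genes tested that stood on the higher side. TGFBR2, the type II receptor, lay at 79.73 to 114.16 FPKM in treated and 34.83 to 70.88 FPKM in control cells (log2 fold change 0.74 ± 0.30 SE, limma adjusted p = 0.444, or 0.41 on the log2 scale without control replicate 1). TGFB3 (-0.43 ± 0.20 SE) and SMAD7, the inhibitory SMAD (0.38 ± 0.23 SE, 0.15 without control replicate 1), were next by p.

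The epithelial counterparts were divided, 12 on the higher and 11 on the lower side of 23 tested, with a median log2 fold change of 0.03 and no call. GRHL2, a factor that upholds epithelial genes, lay at 14.61 to 19.03 FPKM in treated and 5.51 to 12.01 FPKM in control cells (log2 fold change 0.79 ± 0.31 SE, limma adjusted p = 0.415, or 0.44 on the log2 scale without control replicate 1). ELF3, an epithelial ETS factor, lay at 51.51 to 70.20 FPKM in treated and 72.55 to 98.88 FPKM in control cells (log2 fold change -0.39 ± 0.18 SE, limma adjusted p = 0.530, or -0.25 on the log2 scale without control replicate 1). Of the 16 tested relatives of the members by gene family (intermediate filaments, cadherins, proteoglycans and S100 proteins), 9 were on the higher and 7 on the lower side, with a median of 0.10 and no call.

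**Figure D4:**
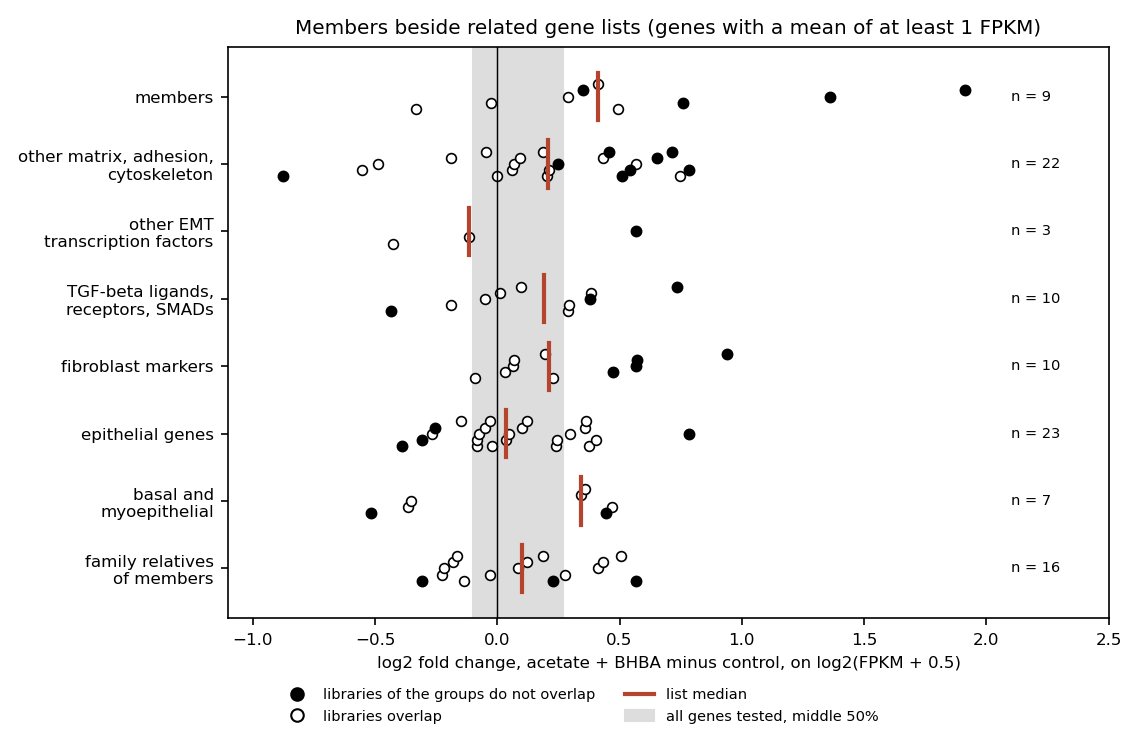
Log2 fold change, acetate and BHBA minus control, of each tested gene in 8 lists, with filled circles where the libraries of the groups do not overlap, red bars for list medians and a grey band for the middle 50% of all genes tested. THY1 and S100A4 are the points above 1, and the median of the 9 members is 0.41, that of the epithelial genes 0.03.

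Markers of other cell types were read for the same libraries, since THY1, DCN, VIM and S100A4 are also made by stromal cells or leukocytes. Fewer cells of a type and less RNA per cell cannot be told apart in such samples. The 16 fibroblast markers summed to 219 to 234 FPKM in treated and 180 to 191 FPKM in control libraries, with 10 tested, 9 of them on the higher side (61.9% of all genes tested), 4 without overlap, all higher (13.0% of all genes tested), and no call. COL6A2, the most abundant, had a log2 fold change of 0.06 ± 0.22 SE, and its sign turned with trimmed-mean factors. COL5A1, a fibrillar collagen chain, lay at 47.91 to 61.08 FPKM in treated and 22.99 to 30.11 FPKM in control cells (log2 fold change 0.94 ± 0.16 SE, limma adjusted p = 0.0818, and 0.0489 without control replicate 1), and COL6A1 had a log2 fold change of 0.57 ± 0.18 SE. The largest part of the difference in the list's summed FPKM came from COL5A1, with means of 52.5 FPKM in treated and 27.2 FPKM in control cells. COL1A1, at 13.82 to 16.86 FPKM in treated and 8.83 to 16.43 FPKM in control cells, and PDGFRA, a receptor of fibroblasts, at 1.95 to 2.97 FPKM in treated and 1.45 to 3.18 FPKM in control cells, overlapped between groups. FAP, DPT and TCF21, other fibroblast genes, lay under 1 FPKM in all 6 libraries. The part of fibroblasts in the THY1, S100A4 and DCN values was not tested.

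Some leukocyte and endothelial markers were measured at several FPKM, around the level of CDH2, while defining markers of both types were low or listed at 0. Of 11 leukocyte markers, PTPRC, the pan-leukocyte antigen, reached at most 0.03 FPKM in treated cells and was listed at 0 in control cells, and CD79A and TYROBP were listed at 0 in all 6 libraries. CD14, the highest in that list by the mean of all 6 libraries, lay at 6.19 to 8.03 FPKM in treated and 3.65 to 4.73 FPKM in control cells (log2 fold change 0.65 ± 0.18 SE). AIF1, at 2.25 to 7.65 FPKM in treated and 4.23 to 7.93 FPKM in control cells, was above CD14 by mean in control cells and overlapped between groups (log2 fold change -0.21 ± 0.44 SE), and the whole list summed to 10.6 to 14.8 FPKM in treated and 9.73 to 12.3 FPKM in control libraries. Of 8 endothelial markers, PECAM1 and CDH5 stayed at or under 0.06 FPKM, and VWF, the highest, lay at 3.72 to 5.82 FPKM in treated and 2.52 to 3.76 FPKM in control cells. That list summed to 4.51 to 6.55 FPKM in treated and 3.25 to 5.30 FPKM in control libraries. The 5 adipocyte markers summed to 1.23 to 2.32 FPKM in treated and 0.42 to 0.80 FPKM in control libraries, of which LEP (leptin) made up at most 1.97 FPKM in treated and 0.23 FPKM in control libraries.

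Basal and myoepithelial markers, 10 found and 7 tested, were 4 higher and 3 lower with no call. KRT5 lay at 6025.26 to 6826.75 FPKM in treated and 8960.30 to 9385.06 FPKM in control cells (log2 fold change -0.51 ± 0.20 SE, limma adjusted p = 0.418). ACTA2, the smooth muscle actin of myoepithelial cells and myofibroblasts, lay at 223.05 to 308.09 FPKM in treated and 287.24 to 381.63 FPKM in control cells, with overlap (log2 fold change -0.37 ± 0.18 SE), and KRT14 had a log2 fold change of 0.44 ± 0.19 SE (0.27 without treated replicate 2). KRT17 (log2 fold change 0.34 ± 0.28 SE) and CNN1 (0.47 ± 0.23 SE) were on the higher side, and both overlapped between groups. MYH11, the smooth muscle myosin, reached at most 0.09 FPKM in either group. TP63 lay at 0.35 to 0.88 FPKM in treated and 0.05 to 0.50 FPKM in control cells, and was not tested.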

How the data were processed

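The authors deposited 1 table of FPKM values, 1 column per library, for 6 libraries of poly(A) RNA sequenced as paired ends. Per the submitters' processing notes the build was ARS-UCD1.2. The sources used here do not give the aligner, the annotation release or the strand setting. Columns were matched to samples by name (NaAc and its number for the treated ones). FPKM holds no counts, so depth is unknown and no count model was fitted. FPKM was used as deposited, as log2(FPKM + 0.5). The 11615 genes that averaged 1 FPKM or more were compared with limma 3.58.1 in R 4.3.3 (mean-variance trend, 2-sided, Benjamini-Hochberg over all of them, threshold 0.05). The fit was tested on simulated data with independent noise for each gene and library. Those data held no shift shared by the genes of a library, so they do not give the error rate of the fit in these libraries. Plots were made with matplotlib 3.10.9 and tables with pandas 2.3.3 under Python 3.11.15.

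The members, the 10 related gene lists and the alternatives were chosen with earlier results of these data known. Of 153 listed symbols 146 were found, 2 of them by an older symbol. TPM1, which has 2 identifiers, was left out. Named genes were the members, CDH1, up to 3 genes with the smallest p in each list and the most abundant of each list of other cell types. A gene that this rule names among the other matrix genes is not reported here. Others, among them EPCAM, the S100 relatives and neighbours, RPL27, CDH3, the Snail, TWIST and ZEB relatives, COL1A1, PDGFRA, KRT17, CNN1, TP63 and the markers near 0, were chosen after their values were seen. The alternatives were other pseudocounts and filters, 3 scalings, 2 variance estimates, the summed FPKM as a covariate, a block for the replicate number, and 6 fits that each lack 1 library. No gene or protein sequences were used here.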

Additional observations from a re-analysis of the deposited data

How the results depend on the processing

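THY1, S100A4, DCN, TWIST1, SNAI2, SNAI1, CDH2 and FN1 kept their direction under each alternative in which they were tested (17, or 16 for DCN), and none of them passed except with the summed FPKM as a covariate (5 members, all higher) and without control replicate 1 (2 members, higher). Leaving out 1 library gave 0 to 2 member calls. The log2 fold change of VIM turned to 0.049 with quantile normalization and with rescaling, and ran from -0.10 to 0.041 over the fits that lack a library (0.041 without treated replicate 2, 0.0047 without control replicate 3). COL6A2 turned to -0.0089 with trimmed-mean factors and ran from -0.060 to 0.25 over those fits (below 0 without treated replicate 3, control replicate 2 or control replicate 3). AIF1 ran from -0.55 to 0.24 (above 0 without treated or control replicate 1) and TCF3 from -0.30 to 2.7e-05 (above 0 without control replicate 3). Over all genes, 40 were higher and 15 lower; the counts were 25 and 8 among genes averaging 5 FPKM or more, 16 and 7 after rescaling, 1361 and 728 with the covariate, and 27 lower with quantile normalization (35 higher). Without 1 library, 0 to 146 were higher and 0 to 59 lower. With the replicate number as a block, 0 genes passed on either side and 0 members did. Of all genes tested 5.03% had an unadjusted p under 0.05, 2 members among them. Same-numbered libraries deviated in opposite directions (r = -0.73, -0.37 and -0.38 for the deviations from group means). Treated replicate 1 and control replicate 1 also had the lowest and the highest summed FPKM. These correlations therefore cannot tell whether the numbers pair the libraries. With the covariate, where 18.0% of all genes tested passed, calls were also made in the related lists. They were 11 of 22 tested for matrix, adhesion and cytoskeleton genes and 6 of 16 for family relatives. They were 5 of 23 for epithelial genes, 5 of 7 for basal genes and 3 of 10 for fibroblast markers. They were 2 of 10 for TGF-beta genes and 1 of 2 for leukocyte markers. Without control replicate 1, where 1.76% of all genes tested passed, there was 1 call in these lists, COL5A1. The cause of these differences was not tested. Depth is unknown, and with 3 libraries a group the spread itself is imprecise.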

Other observations

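Several further genes of the matrix, adhesion and cytoskeleton list had groups that did not overlap, and were chosen after their values were seen. That list held 7 such genes higher and 1 lower in treated cells, and the epithelial list 1 higher and 3 lower. Of all genes tested, 13.0% did not overlap on the higher side and 6.69% on the lower. MMP2, a gelatinase of mesenchymal cells, lay at 15.04 to 17.42 FPKM in treated and 10.47 to 11.69 FPKM in control cells (log2 fold change 0.54 ± 0.13 SE, limma adjusted p = 0.165). AXL, a receptor tyrosine kinase of mesenchymal-like carcinoma cells, lay at 43.42 to 46.69 FPKM in treated and 28.18 to 35.15 FPKM in control cells (log2 fold change 0.46 ± 0.13 SE, limma adjusted p = 0.251). ITGA5, the alpha chain of the fibronectin receptor, lay at 5.01 to 5.69 FPKM in treated and 3.25 to 3.98 FPKM in control cells (log2 fold change 0.51 ± 0.16 SE, limma adjusted p = 0.305), while its ligand FN1 overlapped between groups.

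Low genes below the minimum for testing included OXTR, the oxytocin receptor of myoepithelial cells, at 0.78 to 1.18 FPKM in treated and 0 to 0.19 FPKM in control libraries, and FOXC2, a mesenchymal forkhead factor, at 0.94 to 1.08 FPKM in treated and 0.42 to 0.81 FPKM in control libraries. Neither overlapped between groups, and neither was tested. Of the other untested genes in the lists, PRPH, FAP, PTPRC and LEP lay apart on the higher side, and DES and PLIN1 on the lower. The share of all untested genes that lay apart was not computed.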
